A study of Homo sapiens with 18 samples.

Results

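The 7 genes described here are the human aldo-keto reductases AKR1B1, AKR1B10, AKR1B15, AKR1C1, AKR1C2, AKR1C3 and AKR1C4. They were chosen by name out of 58735 annotated genes, and all 7 were counted and passed the filter on low counts. Aldo-keto reductases are cytosolic enzymes that use NADPH to reduce aldehydes and ketones to alcohols. The AKR1B enzymes act on sugars, retinaldehyde and lipid aldehydes, and the AKR1C enzymes are ketosteroid and prostaglandin reductases that also clear reactive carbonyls. In lung tumours AKR1B10 and several AKR1C genes are known targets of NRF2, the transcription factor of the oxidative stress response, which KEAP1 keeps low. A549 is known to lack functional KEAP1.

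Expression was measured by RNA sequencing in A549 and H358, 2 cell lines from human lung adenocarcinomas. The groups were A549 with a short hairpin RNA against RAD21 from a lentiviral vector (shRAD21), H358 with the same knockdown, and A549 that overexpressed RAD21 (RAD21OE). Their controls, genetically wild type by the labels, carried empty vectors: shNC in A549, shNC in H358, and EV in A549. RAD21 is the kleisin subunit of cohesin, the ring complex that shapes chromatin loops. There were 3 libraries for each of 6 groups, in sum 18, and whether these came from separate cultures, or the lines from 1 clone or a pool, is not given, so p-values measure only the spread between libraries, which may be technical.

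The genes lie in a pair of clusters. In the hg38 coordinates of the files, the AKR1B genes lie on chromosome 7: AKR1B1 at chr7:134442350-134459284 on the minus strand, AKR1B10 at chr7:134527592-134541408 on the plus strand and AKR1B15 at chr7:134549136-134579875 on the plus strand. The AKR1C genes lie on chromosome 10: AKR1C1 at chr10:4963253-4983283, AKR1C3 at chr10:5035354-5107686 and AKR1C4 at chr10:5195462-5218949 on the plus strand, and AKR1C2 at chr10:4987400-5018031 on the minus strand. No exon of the 7 overlapped an exon of another annotated gene on either strand. Likeness within a cluster varied from near-copies to distant relatives. The coding sequences of AKR1C1 and AKR1C2, each 972 bases, were 98.05% identical, with 19 differences, and their longest identical run was 189 bases. AKR1C3 was 91.5% identical to AKR1C1, and AKR1C4 was 88.5%. AKR1B10 and AKR1B15 were 85.9% identical over the longer of their coding sequences, with an identical run of 116 bases. By the same measure AKR1B1 was 76.7% identical to AKR1B10 and 69.8% to AKR1B15. The coding sequence of AKR1B15 is longer, at 1035 bases against 951, and its extra bases count as differences in these values. Among aligned bases alone, AKR1B10 and AKR1B15 differed at 62 of 951. AKR1B1 differed from AKR1B10 at 216 of 945 and from AKR1B15 at 222 of 944.

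The stretches printed next show what separates the copies. They hold coding bases 43 to 162, counted from the A of the start codon, of the principal GENCODE 29 transcript of each AKR1C gene (hg38; each stretch spans 2 exons). This is the 120-base stretch where AKR1C1 and AKR1C2 differ most, and capitals mark bases that differ from AKR1C1. AKR1C2 differed at 10 of the 120 positions, AKR1C3 at 13 and AKR1C4 at 16.
AKR1C1, chr10:4963487-4965991, plus strand: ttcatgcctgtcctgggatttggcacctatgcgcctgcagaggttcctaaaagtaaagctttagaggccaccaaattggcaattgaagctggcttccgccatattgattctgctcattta
AKR1C2, chr10:5001604-5003793, minus strand: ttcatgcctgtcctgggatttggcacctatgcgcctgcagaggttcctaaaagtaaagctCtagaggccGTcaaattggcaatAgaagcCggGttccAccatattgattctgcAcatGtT
AKR1C3, chr10:5094487-5096487, plus strand: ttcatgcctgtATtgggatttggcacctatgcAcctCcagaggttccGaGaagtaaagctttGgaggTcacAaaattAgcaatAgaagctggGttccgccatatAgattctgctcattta
AKR1C4, chr10:5196910-5200258, plus strand: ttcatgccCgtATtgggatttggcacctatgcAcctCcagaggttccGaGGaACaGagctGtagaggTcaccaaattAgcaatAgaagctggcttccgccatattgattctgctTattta

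For the AKR1B genes the 120-base coding stretch where AKR1B10 and AKR1B15 differ least is shown, with capitals for bases that differ from AKR1B10. AKR1B15 differed at 1 position and AKR1B1 at 30. The stretch starts at coding base 208 in AKR1B10 and AKR1B1 and at coding base 292 in AKR1B15.
AKR1B10, chr7:134530784-134532000, plus strand: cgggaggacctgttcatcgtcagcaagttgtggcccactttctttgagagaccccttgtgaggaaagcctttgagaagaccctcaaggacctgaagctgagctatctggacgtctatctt
AKR1B15, chr7:134568299-134569505, plus strand: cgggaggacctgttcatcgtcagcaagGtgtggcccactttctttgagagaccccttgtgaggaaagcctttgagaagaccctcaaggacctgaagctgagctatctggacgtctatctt
AKR1B1, chr7:134450810-134451612, minus strand: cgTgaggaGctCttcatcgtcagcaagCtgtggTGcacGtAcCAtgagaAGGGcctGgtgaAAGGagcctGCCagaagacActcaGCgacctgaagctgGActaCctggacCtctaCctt

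How far reads could be credited to the wrong copy depends on their length, which the sources used here do not give. Of all windows of 50 bases in its GENCODE 29 transcripts, AKR1C2 shared 38.9% letter for letter with another gene and AKR1C1 28.6%. The share fell with the window: at 150 bases it was 13.7% for AKR1C2 and 10.1% for AKR1C1. The gene that shared most windows was AKR1C1 for AKR1C2 and AKR1C2 for AKR1C1. AKR1C3 shared 4.53% of its windows of 50 bases and 0.44% of those of 150, and AKR1C4 shared 8.46% and none. AKR1B10 shared 14.8% at 50 bases, most often with AKR1B15, and none at 150. The split of counts between AKR1C1 and AKR1C2, and the small count of AKR1B15 beside AKR1B10, are therefore uncertain, and the 4 AKR1C genes, and AKR1B10 with AKR1B15, were also counted as sums.

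**Figure D1:**
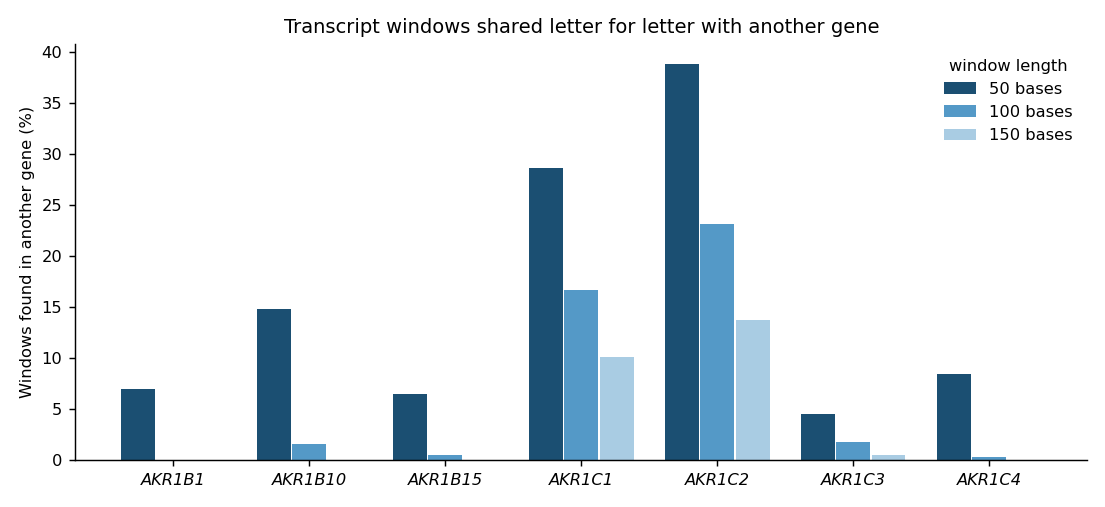
Share of the windows of each gene's transcripts (percent, vertical axis) that occur letter for letter in a transcript of another gene, for windows of 50, 100 and 150 bases. AKR1C1 and AKR1C2 are the only 2 of the 7 genes above 10% at 150 bases, where AKR1B1, AKR1B10, AKR1B15 and AKR1C4 are at 0.

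The knockdown libraries held 15155077 to 19277568 counts and the overexpression libraries 13024640 to 14276335. Replicate 3 stood apart in both manipulated A549 groups: its genes differed from the other replicates by a median of 0.268 (log2) in shRAD21 and 0.22 in RAD21OE, against 0.058 to 0.153 in the other 16 libraries. RAD21 averaged 121 ± 16.9 CPM (a gene's counts scaled to library size) in shRAD21 A549 and 255 ± 2.01 in shNC A549, 413 ± 29.6 in shRAD21 H358 and 587 ± 17.1 in shNC H358, and 1442 ± 118 in RAD21OE and 199 ± 7.96 in EV (SD, n = 3 each). It passed the test in all 3 comparisons, with adjusted p of 2.99e-08, 0.000671 and 2.9e-10 (edgeR). The epithelial keratin gene KRT8 was high in all 6 groups (means of 1588 to 7541 CPM), KRT19 averaged 1297 to 1499 CPM in H358 but 8.79 to 33.2 CPM in A549, and the lung factor NKX2-1 averaged 155 and 122 CPM in H358 (shRAD21 and shNC) but at most 0.552 CPM in A549. The hepatocyte genes ALB, APOA2 and CYP3A4 averaged at most 0.802 CPM in every group, as did the leukocyte genes CD3E and PTPRC.

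Levels of different genes were compared per kilobase of merged exons. These span 1744 bases in AKR1B10 and 3660 in AKR1B1, but 8765 in AKR1C1, 6461 in AKR1C2 and 4532 in AKR1C3. The gaps between genes therefore depend on this length. Without it, AKR1B10 averaged 4995 CPM and AKR1C2 3925 CPM in shRAD21 A549. Per kilobase, AKR1B10, which reduces retinaldehyde and other aldehydes, stood highest in A549 with shRAD21. It had 2864 ± 43.1 CPM per kilobase and ranked 12 of 19951 protein-coding genes. AKR1C2 followed at 608 ± 78.4, AKR1C3 at 396 ± 55.4, AKR1B1 at 259 ± 17.6 and AKR1C1 at 91.5 ± 17.7. AKR1B15 had 6.65 ± 1.63 and AKR1C4 2.18 ± 0.309 (SD, n = 3). In shNC A549 the order was the same, with AKR1B10 at 1755 ± 28.2 (rank 15), AKR1C2 at 327 ± 9.68, AKR1C3 at 230.2 ± 5.05, AKR1B1 at 171 ± 5.47, AKR1C1 at 37.4 ± 0.567, AKR1B15 at 4.51 ± 0.409 and AKR1C4 at 0.802 ± 0.254. The ranges of all neighbours in this order were separate in both groups.

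The overexpression table held a like order. In RAD21OE cells AKR1B10 reached 3395 ± 232 CPM per kilobase, rank 5, followed by AKR1C2 at 520.3 ± 37.4. AKR1C3 at 311 ± 25.9 and AKR1B1 at 279 ± 32.5 came next, with overlapping ranges. In EV cells AKR1B10 had 1627 ± 37.9, while AKR1B1 at 349 ± 6.62 and AKR1C2 at 346 ± 24.9 could not be told apart. The libraries of the 2 tables were labelled as separate batches, and levels were not compared between the tables. All 18 libraries were joined only in an alternative fit and in the search for genes with similar patterns.

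In H358 the 7 genes were far lower. AKR1B1, aldose reductase, the first enzyme of the polyol pathway, was the only one above 2 CPM per kilobase, at 13.3 ± 0.288 in shRAD21 and 11.3 ± 0.321 in shNC. In shNC H358, AKR1B10 had 1.29 ± 0.314 and AKR1C3 0.995 ± 0.0941 per kilobase, with ranges that nearly touched. AKR1C1 at 0.468 ± 0.0865 and AKR1B15 at 0.348 ± 0.0477 overlapped. Not divided by length, the order differed, with AKR1C3 at 4.51 CPM, AKR1C1 at 4.10 CPM and AKR1B10 at 2.26 CPM. Between the control lines all 7 genes passed the test and were lower in H358, where 76.0% of the 18939 genes tested passed, 39.1% higher and 36.8% lower. AKR1C2 averaged 1.27 ± 0.422 CPM in H358 shNC and 2110 ± 62.5 CPM in A549 shNC, a log2 difference of -10.70, and AKR1B10 averaged 2.26 ± 0.547 and 3060 ± 49.2 CPM, a difference of -10.40. AKR1C3 differed by -7.86, AKR1C1 by -6.30, AKR1B1 by -3.92 and AKR1B15 by -3.69 (adjusted p between 1.01e-20 and 1.74e-11, edgeR). For AKR1C4 only 1 count in H358 shNC stood against 69 in A549 shNC, a ratio of 0.0119 with an exact 95% interval of 0.000296 to 0.0683 that covers counting error only.

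Knockdown of RAD21 in A549 was tested against shNC to ask whether these genes move when RAD21 falls. All 7 rose, where 25.2% of the 18939 genes tested passed the adjusted p of 0.05 in either direction, 14.4% higher and 10.9% lower. The median log2 fold change of the 7 was 0.78, against 0.00 over all genes tested. In these bulk cultures a change in the cells that express a gene and a change in RNA per cell cannot be told apart.

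AKR1C1, which turns progesterone into a less active steroid, rose most among the well-expressed members. It had 911, 869.6 and 625 CPM in the shRAD21 libraries 1 to 3, against 322, 328 and 332 CPM in shNC. Every shRAD21 library lay above every shNC library, and shRAD21 replicate 3 was the lowest of its group. The log2 fold change was 1.29 (SE 0.11, adjusted p = 7.22e-08, edgeR), and without shRAD21 replicate 3 it was 1.44.

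AKR1C2, an enzyme that inactivates dihydrotestosterone, had 4300, 4127 and 3349 CPM in shRAD21 and 2042, 2165 and 2122 CPM in shNC. Its log2 fold change was 0.90 (SE 0.08, adjusted p = 3.1e-07, edgeR). AKR1C3, which forms testosterone from androstenedione and also makes prostaglandin F, had 1988, 1886 and 1512 CPM in shRAD21 and 1024, 1069 and 1037 CPM in shNC, a log2 fold change of 0.78 (SE 0.09, adjusted p = 1.96e-06). For both genes the groups were separate, with shRAD21 replicate 3 again the lowest of its group. AKR1C4, the liver-type member that acts in bile acid synthesis, was barely expressed, with 75, 55 and 65 counts in shRAD21 and 17, 30 and 22 counts in shNC. It rose by 1.45 on the log2 scale (SE 0.32, adjusted p = 0.0023). Counted as 1 sum, the 4 AKR1C genes rose by 0.91 (SE 0.08, adjusted p = 1.8e-07). Reads that were dropped, or shared with copies outside the 4 genes, are not recovered by the sum.

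In the AKR1B cluster, AKR1B10 had 5042, 4908 and 5033 CPM in shRAD21, against 3091, 3086 and 3003 CPM in shNC. Every shRAD21 library lay far above every shNC library, and the log2 fold change was 0.71 (SE 0.07, adjusted p = 6.8e-07, edgeR). AKR1B1 had 938, 887 and 1015 CPM in shRAD21 and 650.3, 617 and 615 CPM in shNC, a log2 fold change of 0.59 (SE 0.06, adjusted p = 6.34e-07). Both groups were separate for both genes. AKR1B15, the nearest relative of AKR1B10, had 27.8, 21.5 and 17.04 CPM in shRAD21 and 15.01, 16.3 and 13.6 CPM in shNC. Its log2 fold change of 0.56 (SE 0.16, adjusted p = 0.0121) did not pass without shRAD21 replicate 1 (0.36, adjusted p = 0.106) or without shNC replicate 3 (0.50, adjusted p = 0.0611). AKR1B10 and AKR1B15 summed gave 0.71.

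**Figure D2:**
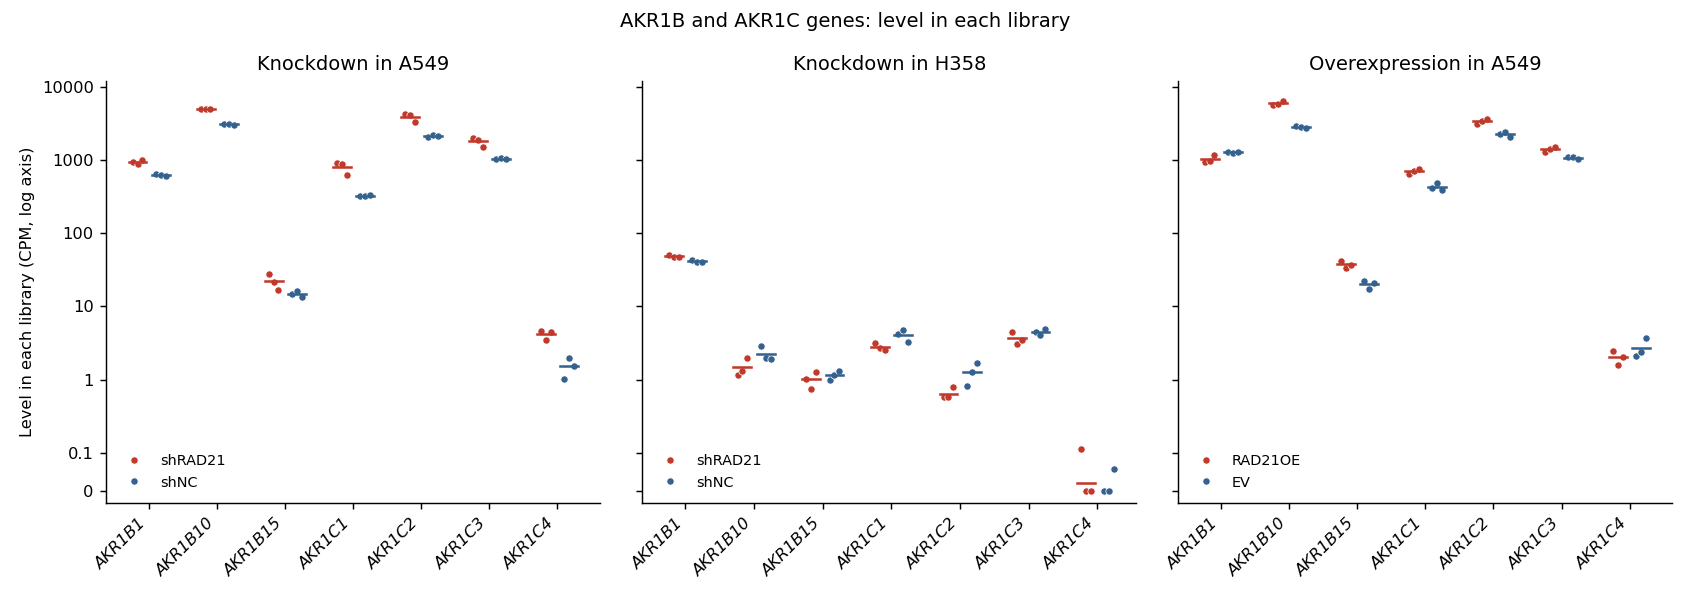
Level of each gene in each library, in CPM on a log axis whose line marked 0 is set at a fixed low place, for the 3 comparisons (knockdown in A549 and in H358, overexpression in A549). Points are libraries, short lines group means, and points on the line marked 0 are libraries with no counts; in A549 the shRAD21 points lie above the shNC points for all 7 genes, and in H358 all means but that of AKR1B1 are under 5 CPM.

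Among the 2345 genes with a mean of at least 100 CPM in these 6 libraries, AKR1C1 had the log2 fold change ranked 12 from the top, AKR1C2 27, AKR1C3 48, AKR1B10 59 and AKR1B1 84. The gain of AKR1B10 was 1935 CPM and that of AKR1C2 1816 CPM, ranked 5 and 6 of all genes counted. The 7 genes together took 1.12 ± 0.0658% of all counts in shRAD21 and 0.667 ± 0.0106% in shNC (SD, n = 3 each).

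Base composition moved with this comparison. Across 18927 tested genes with a GC value, the log2 fold change fell with GC content (Spearman rho = -0.326 across genes, which are not independent), and the longest transcripts of the 4 AKR1C genes hold 40.2% to 44.3% GC, against a median of 46.9% over all genes. With GC content and transcript length removed as per-library trends, AKR1C1 was at 1.12, AKR1C2 at 0.72, AKR1C3 at 0.64, AKR1B10 at 0.71 and AKR1B1 at 0.70, and all 7 genes passed.

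RAD21OE was tested against EV to ask how the genes move when RAD21 is raised. Here 5 of the 7 rose and 1 fell, AKR1B1, where 27.8% of 15462 genes tested passed, 14.1% higher and 13.7% lower. The median of the 7 was 0.59, against -0.01 over all genes tested.

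AKR1B10 rose most of the 7. It had 5608, 5777 and 6376 CPM in RAD21OE, against 2881, 2870 and 2761 CPM in EV, with separate groups and a log2 fold change of 1.06 (SE 0.07, adjusted p = 1.05e-06, edgeR). Its gain of 3083 CPM ranked 2 among all genes counted. AKR1B15 had 42.0, 33.7 and 37.0 CPM in RAD21OE and 22.02, 17.5 and 20.7 CPM in EV, a log2 fold change of 0.90 (SE 0.12, adjusted p = 0.000258). AKR1B1 went the other way, with 938, 971 and 1158 CPM in RAD21OE and 1294, 1250 and 1290.0 CPM in EV. The groups were separate, and RAD21OE replicate 3 lay nearest to EV. AKR1B1 fell by 0.32 on the log2 scale (SE 0.08, adjusted p = 0.0124). That call was lost without EV replicate 1 (adjusted p = 0.0617), EV replicate 3 (0.0543) or RAD21OE replicate 2 (0.064), whereas without RAD21OE replicate 3 the log2 fold change was -0.42.

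AKR1C1 had 644, 716 and 760.3 CPM in RAD21OE and 419.6, 484 and 385 CPM in EV, a log2 fold change of 0.72 (SE 0.09, adjusted p = 0.000175, edgeR). AKR1C2 had 3113, 3377 and 3595 CPM in RAD21OE and 2241, 2397 and 2075 CPM in EV, a log2 fold change of 0.59 (SE 0.08, adjusted p = 0.00021). AKR1C3 had 1293, 1410.0 and 1527 CPM in RAD21OE and 1093, 1110.0 and 1030.0 CPM in EV, a log2 fold change of 0.39 (SE 0.08, adjusted p = 0.00283). RAD21OE lay above EV in every library for these 3 genes. The sum of the 4 AKR1C genes rose by 0.55 (SE 0.08, adjusted p = 0.000309). AKR1C4, with 35, 21 and 28 counts in RAD21OE and 29, 32 and 50 in EV, had a log2 fold change of -0.43 (adjusted p = 0.268) and overlapping groups.

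**Figure D3:**
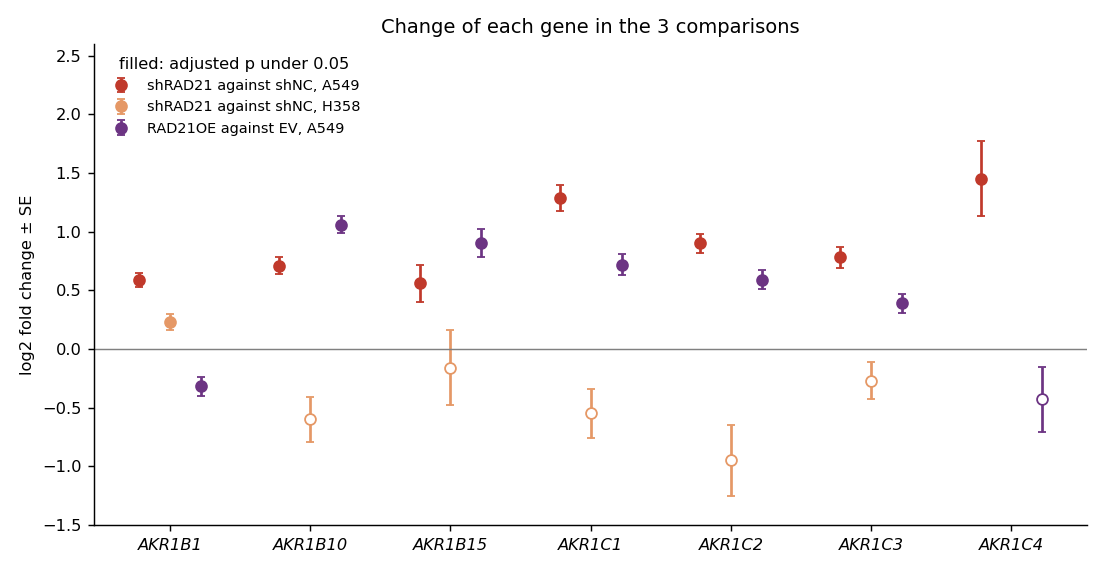
Log2 fold change with its standard error for each gene in the 3 comparisons (knockdown in A549 and in H358, overexpression in A549), filled where the adjusted p was under 0.05. AKR1B10, AKR1B15, AKR1C1, AKR1C2 and AKR1C3 are filled and above 0 in both A549 comparisons, AKR1B1 lies at 0.59 with the knockdown and -0.32 with overexpression, and AKR1C4 in H358 is left out because both groups had 3 counts or fewer.

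Thus AKR1B10, AKR1B15, AKR1C1, AKR1C2 and AKR1C3 rose in A549 both when RAD21 was knocked down and when it was overexpressed, in comparisons that share no libraries. Of 15306 genes tested in both, 243 were higher in both, which is 1.59%, or 9.53% of the genes higher with the knockdown and 11.2% of those higher with overexpression. AKR1B1 was higher with the knockdown and lower with overexpression. The GC trend also ran in opposite directions (rho = 0.316 across 15455 genes with overexpression), and with its correction AKR1C1 was at 0.82, AKR1C2 at 0.76 and AKR1C3 at 0.52 with overexpression. Without replicate 3 of RAD21OE, these 3 genes were at 0.66, 0.54 and 0.33 and each still passed.

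Knockdown in H358 repeated the first question in a line where the members other than AKR1B1 averaged under 5 CPM. A single member passed, AKR1B1, where 8.40% of 18939 genes tested passed, 3.78% higher and 4.62% lower. AKR1B1 had 49.9, 48.1 and 48.1 CPM in shRAD21 and 42.8, 40.6 and 41.0 CPM in shNC. The groups were separate and narrow, with a log2 fold change of 0.23 (SE 0.07, adjusted p = 0.0337, edgeR). The call did not pass when any 1 of the 6 H358 libraries was left out (adjusted p between 0.0641 and 0.133) and is weak.

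The other members had lower means in shRAD21 than in shNC, except AKR1C4, but none passed. AKR1C2 had 10, 10 and 14 counts in shRAD21 and 15, 27 and 28 in shNC, separate groups with a log2 fold change of -0.95 (SE 0.30, adjusted p = 0.0587). AKR1B10 had 20, 23 and 35 counts in shRAD21 and 52, 41 and 32 in shNC, overlapping groups at -0.60 (SE 0.19, adjusted p = 0.0556). AKR1C1 had 56, 47 and 45 counts in shRAD21 and 76, 100 and 55 in shNC, separate groups at -0.55 (SE 0.21, adjusted p = 0.118). Calls for these genes turned on the method and on single libraries. Over 16 alternatives other than the sums, AKR1C2 did not pass in 11, AKR1B10 in 12 and AKR1C1 in 13. AKR1B10 was at -0.86 (adjusted p = 0.0199) without shRAD21 replicate 3, and AKR1C2 was at -1.17 (adjusted p = 0.0234) without shNC replicate 1. With all libraries kept, AKR1B10 passed with the DESeq2 Wald test (adjusted p = 0.0446) and with the GC and length correction (adjusted p = 0.0282, edgeR). AKR1C3 was at -0.27 (adjusted p = 0.341) and AKR1B15 at -0.16 (adjusted p = 0.819). AKR1C4 had 2 counts in shRAD21 and 1 in shNC, too few for a fold. The 4 AKR1C genes summed gave 146, 111 and 122 counts in shRAD21 and 171, 213 and 167 in shNC, separate groups with a log2 fold change of -0.46 (SE 0.12, adjusted p = 0.0262). The same sum was 8.46 (log2) lower in H358 shNC than in A549 shNC.

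The knockdowns were compared directly by the difference of their log2 fold changes, H358 minus A549. It passed for 5 of the 7 genes, all lower in H358, where 17.6% of genes tested passed, 7.61% higher and 9.94% lower. The difference was -1.85 for AKR1C1 (SE 0.24, adjusted p = 2.73e-05, edgeR) and -1.85 for AKR1C2 (SE 0.31, adjusted p = 0.000438). It was -1.31 for AKR1B10 (SE 0.20, adjusted p = 0.000178), -1.06 for AKR1C3 (SE 0.18, adjusted p = 0.000618) and -0.36 for AKR1B1 (SE 0.09, adjusted p = 0.00865). With limma-voom the AKR1C2 difference did not pass (-1.78, adjusted p = 0.0561). AKR1B15, at -0.73, did not pass (adjusted p = 0.17), except without A549 shRAD21 replicate 3, where it was -0.89 (adjusted p = 0.0218). RAD21 itself fell less in H358, by a difference of 0.57 (adjusted p = 0.00228). Its part in these differences was not tested.

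Within the clusters the members did not move by equal amounts. Counts of AKR1C2 per count of AKR1C1 were 4.72, 4.75 and 5.36 in shRAD21 and 6.33, 6.61 and 6.39 in shNC of A549. With overexpression they were 4.83, 4.72 and 4.73 in RAD21OE and 5.34, 4.95 and 5.39 in EV. The ratio was lower in the manipulated cells in both comparisons, with separate groups each time. With overexpression the gap was small: AKR1C1 and AKR1C2 had log2 fold changes of 0.72 and 0.59. With the GC and length correction these were 0.82 and 0.76. The split of counts between the pair is uncertain, and so is this ratio. AKR1C3 per AKR1C1 was 2.26 ± 0.141 in shRAD21 and 3.19 ± 0.0715 in shNC, and 2.00 ± 0.0225 in RAD21OE and 2.52 ± 0.205 in EV (SD, n = 3 each), again with separate groups. An exact permutation test of 3 libraries against 3 cannot go below 0.10, so none was run. In the AKR1B cluster, AKR1B10 per AKR1B1 was 5.29 ± 0.297 in shRAD21 and 4.88 ± 0.126 in shNC, with overlapping ranges, and 5.81 ± 0.266 in RAD21OE and 2.22 ± 0.0772 in EV.

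**Figure D4:**
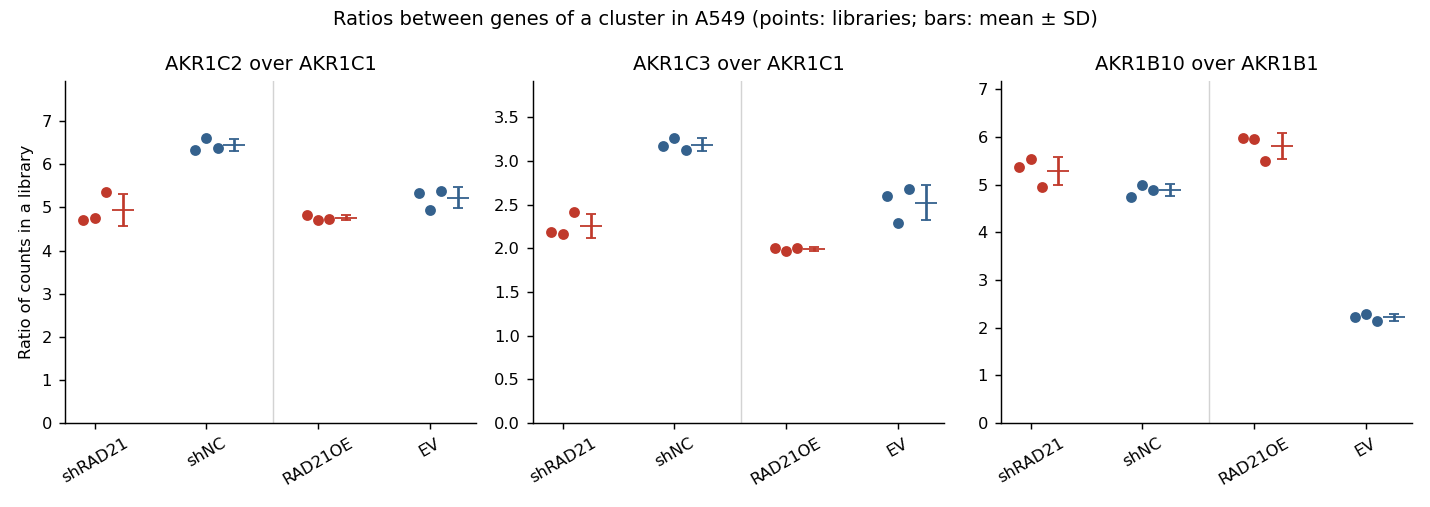
Ratio of the counts of 2 genes in each A549 library, with the mean and SD of each group of 3, for AKR1C2 over AKR1C1, AKR1C3 over AKR1C1 and AKR1B10 over AKR1B1. Both AKR1C ratios are lower in shRAD21 than in shNC and in RAD21OE than in EV, and AKR1B10 over AKR1B1 stands at 2.22 on average in EV and near 5 to 6 in RAD21OE.

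Other genes of the NRF2 pathway were followed as a list of 29 targets without the AKR genes. With knockdown in A549, 12 rose and 5 fell, with a median log2 fold change of 0.03, where 14.4% of all genes tested were higher and 10.9% lower. GPX2, a glutathione peroxidase, rose by 1.29 (379 ± 5.81 CPM in shRAD21 and 156 ± 3.77 in shNC, adjusted p = 2.7e-09), and EPHX1, an epoxide hydrolase, and TRIM16L rose by 0.72 and 0.57. CES1, a carboxylesterase, fell by 2.49, NR0B1, an orphan nuclear receptor, by 1.23, and GCLC, which catalyses the first step of glutathione synthesis, by 0.63. With overexpression, 19 of the 29 rose and 1 fell, with a median of 0.34, where 14.1% of all genes tested were higher and 13.7% lower. OSGIN1 averaged 293 ± 29.3 CPM in RAD21OE and 73.6 ± 9.33 in EV (log2 fold change 1.99, adjusted p = 1.22e-07), NR0B1 rose by 1.10 and CYP4F11 by 0.99. ALDH3A1, an aldehyde dehydrogenase, fell by 0.34. In H358, 1 target, EPHX1, rose by 0.26 and 8 fell, with a median of -0.13, where 3.78% of all genes tested were higher and 4.62% lower. SLC7A11, the cystine transporter, fell by 0.98 (62.6 ± 2.96 CPM in shRAD21 and 123 ± 9.23 in shNC), ABCC3 by 0.69 and NQO1 by 0.34. All 29 targets were lower in H358 shNC than in A549 shNC, a contrast in which 36.8% of all genes tested were lower and 39.1% higher.

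**Figure D5:**
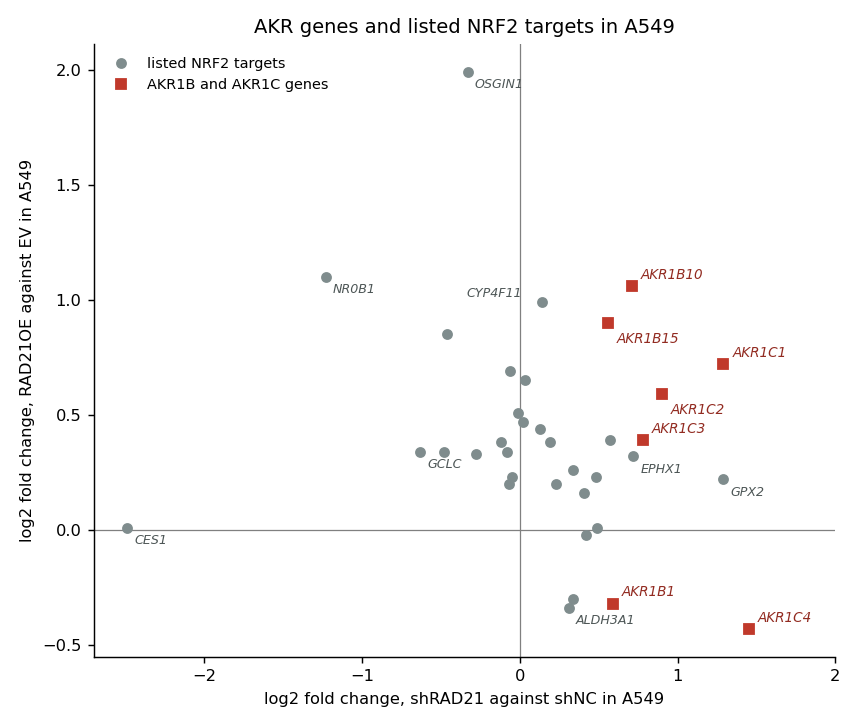
Log2 fold change of the 7 AKR genes (squares) and of 29 listed NRF2 targets (circles) in A549, with the knockdown on the horizontal and overexpression on the vertical axis. AKR1B10, AKR1B15, AKR1C1, AKR1C2 and AKR1C3 lie on the upper right, while NR0B1, GCLC and OSGIN1 lie on the upper left, and AKR1B1, AKR1C4 and ALDH3A1 on the lower right.

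Of 10 regulators of NRF2, 1 rose and 5 fell with knockdown in A549 (all genes: 14.4% higher, 10.9% lower). BACH1, a repressor that competes with NRF2, rose by 0.31 with overlapping ranges, while the small MAF gene MAFF fell by 1.56, SQSTM1, whose product draws KEAP1 into autophagy, by 0.71, and the related factor NFE2L1 by 0.44. With overexpression 6 rose and none fell (all genes: 14.1% higher, 13.7% lower), among them SQSTM1 by 0.87, NFE2L2, which encodes NRF2, by 0.35 and KEAP1 by 0.35. In H358 none of the 10 passed.

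For the lists that follow, the shares over all genes tested were 14.4% higher and 10.9% lower with knockdown in A549, 3.78% and 4.62% with knockdown in H358, and 14.1% and 13.7% with overexpression. Of 9 other aldo-keto reductase and beta subunit genes, 8 were tested, and none passed in either knockdown. With overexpression AKR1E2, which starts within 500 kb of the AKR1C cluster, rose by 0.50 and AKR7L by 1.24. Of 25 tested genes of carbonyl and aldehyde metabolism, 10 rose and 4 fell with knockdown in A549. Examples were PTGR1, a reductase of prostaglandins and alkenals, at 0.53, the aldehyde dehydrogenases ALDH2 at 0.63 and ALDH1A1 at 0.50, and DHRS2 at -1.05, ALDH1A3 at -0.68 and RDH10 at -0.64. With overexpression 3 of 22 rose, PTGR1 by 0.53, ALDH3A2 by 0.42 and CBR1 by 0.36, and 7 fell, among them ALDH2 by 0.67, ALDH1A1 by 0.54 and ALDH3B1 by 0.47. PTGR1 thus rose in both A549 comparisons, and ALDH1A1 and ALDH2 changed in opposite directions. In H358 3 rose, DHRS2 by 0.36, ALDH2 by 0.70 and ALDH5A1 by 0.37, and 6 fell, among them DHRS9 by 2.05, ALDH1A3 by 0.67 and ALDH3B1 by 0.63.

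Around AKR1B1, the list of polyol, glyoxalase and osmolyte genes held 8 tested genes. NFAT5, the osmotic stress factor that drives AKR1B1 in kidney cells, fell by 0.51 with knockdown in A549 and by 0.38 with overexpression. GLO1, glyoxalase 1, rose by 0.39 and the taurine transporter SLC6A6 by 0.19 with knockdown in A549; with overexpression SLC6A6 rose by 0.49 and SORD, sorbitol dehydrogenase, which follows aldose reductase, by 0.29. In H358 SLC6A6 fell by 0.23 and no other passed.

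Around the AKR1C genes, 18 genes of a steroid metabolism list were tested, and 6 rose and 1 fell with knockdown in A549. STS, steroid sulfatase, averaged 29.1 ± 2.55 CPM in shRAD21 and 13.7 ± 0.172 in shNC (log2 fold change 1.09, adjusted p = 3.91e-08), HSD17B12 rose by 0.66 and HSD17B11 by 0.47, and HSD17B14 fell by 1.82. With overexpression 3 of 17 rose, among them HSD17B10 by 0.44 and HSD11B2 by 1.44, and in H358 HSD17B10 rose by 0.42 and HSD11B2 by 1.07. Of 10 tested prostaglandin genes, 1 rose and 4 fell with knockdown in A549. HPGD, the enzyme that inactivates prostaglandins, fell in all 3 comparisons, by 1.10 with knockdown in A549, 0.74 with knockdown in H358 and 0.73 with overexpression. PTGES fell by 0.77 and the cyclooxygenase gene PTGS2 by 0.67 with knockdown in A549, and PTGS1, at 0.864 CPM in shRAD21 and 0.224 in shNC, rose by 1.95 with overlapping ranges.

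Protein-coding neighbours whose start lay within 500 kb of a cluster numbered 5 around AKR1B and 9 around AKR1C, and 6 of those around AKR1C were tested in the knockdown. With knockdown in A549, CALD1 rose by 0.30, with overlapping ranges, and SLC35B4 fell by 0.25 near AKR1B. Both changes were small beside the members, and none of the 6 near AKR1C passed. In H358 none of the 11 tested neighbours passed, but some held too few counts to tell. AKR1C8P had no counts in either group, TUBAL3 had 9 in shRAD21 and 12 in shNC, and LRGUK had 24 and 13. With overexpression NET1 rose by 0.60, AKR1E2 by 0.50 and TUBAL3 by 1.19 near AKR1C. Near AKR1B, BPGM rose by 0.34 while CALD1 fell by 0.62 and LRGUK by 1.56. Low counts underlie LRGUK, with 25 in RAD21OE and 73 in EV, and TUBAL3, with 173 and 74.

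The promoters of AKR1C1 and AKR1C2 are also near-copies. Over the 250 bases before the RefSeq starts (GRCh38.p14), 245 of 246 aligned bases were identical. For AKR1C2, AKR1C3 and AKR1C4 these 250 bases lie inside the gene as annotated in GENCODE 29, past its outermost start. For AKR1C1 and AKR1C2 the bases up to the first that lies in a GENCODE 29 exon are printed here. Over the 84 bases that the pair share no base differs, so none is in capitals.
AKR1C1, chr10:4963165-4963252, plus strand: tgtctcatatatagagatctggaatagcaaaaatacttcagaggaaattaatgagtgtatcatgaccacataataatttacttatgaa
AKR1C2, chr10:5004024-5004107, minus strand: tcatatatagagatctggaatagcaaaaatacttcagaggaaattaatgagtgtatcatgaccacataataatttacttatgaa

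Over the same 250 bases AKR1C1 shared less with AKR1C3, whose pair of RefSeq starts gave sequences 76.8% and 78.6% identical to it, and with AKR1C4, at 67.1%. The core of the antioxidant response element, written TGACNNNGC and searched on both strands, occurs in 13.4% of all 35116 full RefSeq windows, from 250 bases before to 50 after a start. It was in none of the 7 windows that 5 of the members have, which says only that these letters are not there. The window of NQO1, a well-known NRF2 target, held none either.

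Finally, genes with the most similar pattern were sought by the correlation of log2 CPM over the 18 libraries after the mean of each comparison's 6 libraries was subtracted, among 9131 protein-coding genes with at least 10 CPM. The values describe shared libraries and their shared contrasts and carry no test. They do not weigh the size of a change, and a gene can rank high without passing. HNRNPC passed neither with a knockdown nor with overexpression. WARS and PAXIP1 passed only with overexpression, at log2 fold changes of 0.32 and 0.28. AKR1C1 was most like DAPK1 (r = 0.960), USP40 (0.941) and PHLPP1 (0.941), and AKR1C3 was most like GALK2 (0.939), PECR (0.938) and PHLPP1 (0.928). AKR1C2 was most like the export pump gene ABCC2 (0.923), a gene of the NRF2 list, then CLMN (0.904) and ITSN1 (0.892). AKR1B10 was most like WARS (0.914), MYRF (0.903) and TP53BP2 (0.901), and AKR1B15 was most like PALLD (0.890), PAXIP1 (0.881) and HNRNPC (0.879). AKR1B1, the member with the other direction under overexpression, was most like APOL2 (0.964), EEF1A2 (0.962) and MATN2 (0.958). AKR1C4 had the lowest leading value, 0.822 with SEC11A, followed by B2M (0.821) and SLC7A2 (0.800).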

How the data were processed

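RNA sequencing counts were used from 2 tables of raw counts of reads per gene, deposited by the authors, one for the 12 knockdown libraries and one for the 6 overexpression libraries, with 58735 genes each and 0 count columns without a sample. Per the submitters' processing notes, fastp, HISAT2 2.0.5, featureCounts 1.5.0-p3 and hg38 were used, with roles not given. Strandedness and the treatment of reads that match several genes are not given in the sources used here. Gene coordinates equal GENCODE 29.

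Each table was fitted alone in edgeR 4.0.16 (R 4.3.3): filterByExpr, TMM, 1 mean per group, quasi-likelihood F-test, two-sided, Benjamini-Hochberg over all genes tested (18939 and 15462). A gene passed, rose or fell at an adjusted p under 0.05. CPM use TMM-scaled library sizes and are given as mean ± SD (n = 3). The test was tried on simulated counts.

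Alternatives used DESeq2 1.42.0, limma 3.58.1 (voom), other filters, robust dispersions, GC and length offsets, other sets of libraries, each library left out, the replicate number as a block, and summed near-identical genes. Coding sequences came from GENCODE 29, aligned with Biopython 1.88; proteins were not used here. RefSeq promoter windows were matched by symbol for 5 of the 7 members, not for AKR1B10 and AKR1B15. Figures used matplotlib 3.10.9.

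Named genes were all members, RAD21, neighbours within 500 kb that passed, up to 3 genes per list, direction and comparison with the smallest adjusted p, and the 3 most similar genes per member. One gene that this rule names is not reported here. Marker genes were given for context. The members and lists were chosen with earlier results of these data known.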

Additional observations from a re-analysis of the deposited data

Results flagged for a closer look

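The response to the knockdown differed between the lines for 5 genes, by a test of the difference of the log2 fold changes, H358 minus A549 (edgeR, adjusted over all genes). The difference was -1.85 for AKR1C1 and -1.85 for AKR1C2, -1.31 for AKR1B10, -1.06 for AKR1C3 and -0.36 for AKR1B1. For the first 4 of these genes the H358 values rest on group means under 5 CPM. For AKR1B1 both lines were higher in shRAD21, at 0.23 in H358 and 0.59 in A549.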

How the results depend on the processing

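Of the values of single members under the alternatives, 553 kept their side of the threshold, 16 lost the call and 13 gained it. The sign turned in values that passed under no alternative other than the sums: AKR1B15 in H358 (0.02 without shRAD21 replicate 2, against -0.16) and AKR1C4 in H358 and in the difference, on 3 counts or fewer in H358. The count of members called with knockdown in H358, 1, is the least stable: against AKR1B1 higher, it was 2 without the filter and 2 with all 18 libraries (all lower), 4 with DESeq2 (1 higher, 3 lower), 3 with the GC and length correction (1 higher, 2 lower), 2 with only the 6 libraries of the comparison (1 higher, 1 lower), 0 with voom, and 0 to 1 with a library left out. With knockdown in A549 members called were 6 to 7 with a library left out, and with overexpression 5 to 6. Genes called over the whole table depended on single libraries: with knockdown in A549 4780, 3066 with only its 6 libraries, and 3443 to 8430 with a library left out (8430 without shRAD21 replicate 3). With knockdown in H358 they were 1591, 3265 with the GC and length correction, 4473 with only its 6 libraries and 755 to 874 with any 1 of the 6 left out. With overexpression they were 4297 and 2177 to 5536 with a library left out (2440, 2177 and 2705 without EV replicates 1, 2 and 3), for the difference 3325 and 2235 to 7348 (7348 without A549 shRAD21 replicate 3), and between the controls 14392, or 9180 with at least 10 CPM. Where AKR1C4 is replaced by the sum of its cluster, its log2 value is that of the sum, -0.46 in H358 and 0.55 with overexpression. Replicate numbers did not pair the samples; with the number as a block, 0 members were called with knockdown in H358 (AKR1B1 adjusted p = 0.0549, edgeR). The causes of these shifts were not tested, other than fewer libraries or genes. In H358, low counts limit all members but AKR1B1.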
